A study of Mus musculus with 16 samples.

Results

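The 10 genes described here carry or answer the signal of leukemia inhibitory factor (LIF) in mouse uterus: the ligand gene Lif, the receptor genes Lifr, Il6st and Osmr, the kinase gene Jak1, the transcription factor gene Stat3, the STAT3-driven genes Socs3 and Pim1, and the receptivity transcription factor genes Msx1 and Klf5. They were taken by symbol from a table of 31274 features, and all 10 were present and reached the mean of 1 FPKM (fragments scaled to transcript length and library size) over the 16 libraries that was required for testing. The libraries are RNA-seq of whole uteri from ovariectomized females of the genotypes PgrcrePgrBLsL/+ (called PRB) and PgrcrePgrALsL/+ (called PRA), collected 6 h after progesterone (P4) or oil, with 4 biological replicates in each of PRB P4, PRB oil, PRA P4 and PRA oil. The females were kept on normal chow until 8 weeks old. All of them carry the Pgrcre driver, so that Cre is made where the progesterone receptor gene is active. Each also carries a transgene for receptor isoform B or A. The library names include the letters oe, read here as overexpression, so neither strain is taken to hold a single isoform. Ovaries had been removed 2 weeks before collection in all 4 groups, and no strain without a transgene and no estrogen-treated group was used here. The title of the study names LIF signalling, under estrogen, as what receptor B acts on, and the P4 and oil comparison of both strains bears on the same genes without estrogen.

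LIF is a cytokine of the interleukin-6 family. It binds LIFR, which pairs with the shared signalling chain gp130 (the product of Il6st); the receptor-bound kinase JAK1 then leads to phosphorylation of STAT3, which enters the nucleus and switches on genes such as Socs3 and Pim1, and SOCS3 in turn blocks gp130 and JAK signalling. In mice, LIF released by uterine glands at the time of receptivity is required for implantation. RNA levels of these genes do not report receptor occupancy or STAT3 phosphorylation.

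Implied depth was 60.2 to 73.4 M fragments per library, estimated from the steps between low FPKM values, and total FPKM lay between 499748 and 595748. Pgr, the gene whose isoforms the transgenes carry, stood at 112 ± 22.3 FPKM in PRB P4, 83.5 ± 4.49 in PRB oil, 73.9 ± 1.80 in PRA P4 and 64.9 ± 5.52 in PRA oil (SD, n = 4), summed over isoforms. In PRB P4 replicate 3 Pgr was 78.5 FPKM, the lowest value of its group. With P4 the strains differed in Pgr by a log2(FPKM + 1) value of 0.57 (PRB minus PRA, limma, adjusted p = 0.00575). With oil the Pgr difference was 0.36 (adjusted p = 0.588), although the groups did not overlap. Receptor isoform and total Pgr RNA thus cannot be told apart in the strain comparisons. Their separate parts were not tested. Library codes in the labels begin with A for all PRA and with B for all PRB libraries, so anything tied to that letter cannot be told apart from strain. The treatment field of the labels speaks of pregnancy day 4, against the titles, characteristics and design text used here; this conflict is unresolved. The tissue markers fixed for uterine epithelium, stroma, smooth muscle and endothelium were all measured above 1 FPKM on average.

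The promoters of 4 of these genes are shown because the genes behaved differently: Socs3 and Pim1 are both known as STAT3 targets but only Pim1 changed with P4, Stat3 is the factor itself, and Lifr had the largest change among the receptors. Each runs 5′ to 3′ on the strand of its gene, 250 bases before to 50 after a RefSeq start on GRCm38.p6. These starts need not match the GENCODE gene bounds given below. The windows of Socs3 and Lifr lie inside those bounds, downstream of the annotated gene start. Capitals mark the STAT motif TTCNNNGAA in Socs3 and the short progesterone receptor motif TGTTCT, read on the other strand, in Stat3.
Socs3, chr11:117969317-117969616, minus strand: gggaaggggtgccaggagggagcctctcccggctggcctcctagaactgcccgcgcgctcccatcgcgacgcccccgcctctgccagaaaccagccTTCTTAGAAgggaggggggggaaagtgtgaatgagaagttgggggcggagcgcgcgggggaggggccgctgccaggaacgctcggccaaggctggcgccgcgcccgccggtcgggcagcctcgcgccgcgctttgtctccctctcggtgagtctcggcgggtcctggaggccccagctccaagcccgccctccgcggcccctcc
Pim1, chr17:29490535-29490834, plus strand: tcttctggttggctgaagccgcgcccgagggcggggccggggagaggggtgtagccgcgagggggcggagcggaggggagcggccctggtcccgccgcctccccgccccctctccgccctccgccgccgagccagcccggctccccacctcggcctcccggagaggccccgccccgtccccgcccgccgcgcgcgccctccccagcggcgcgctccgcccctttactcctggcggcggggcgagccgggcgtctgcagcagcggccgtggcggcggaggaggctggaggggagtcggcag
Stat3, chr11:100939491-100939790, minus strand: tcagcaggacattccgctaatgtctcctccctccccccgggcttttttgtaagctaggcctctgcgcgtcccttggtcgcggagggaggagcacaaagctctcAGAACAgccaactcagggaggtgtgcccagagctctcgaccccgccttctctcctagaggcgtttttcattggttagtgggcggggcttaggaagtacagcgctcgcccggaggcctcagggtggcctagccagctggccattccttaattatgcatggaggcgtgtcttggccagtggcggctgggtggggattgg
Lifr, chr15:7129322-7129621, plus strand: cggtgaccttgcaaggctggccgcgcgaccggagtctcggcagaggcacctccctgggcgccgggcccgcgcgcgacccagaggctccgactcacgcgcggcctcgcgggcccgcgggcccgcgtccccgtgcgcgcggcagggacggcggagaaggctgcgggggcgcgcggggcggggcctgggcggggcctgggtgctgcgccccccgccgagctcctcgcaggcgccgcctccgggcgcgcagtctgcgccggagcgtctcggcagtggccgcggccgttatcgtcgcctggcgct
Both strands were searched in the 11 promoter entries that 9 of the 10 genes have; Klf5 was not among them. The STAT motif was found in 1 entry, that of Socs3, as TTCTTAGAA beginning at position -154, and it occurs in 8.3% of all 32851 promoters of the table. TGTTCT was found in 1 entry, that of Stat3 at position -147, and occurs in 19% of all promoters. The progesterone receptor palindrome was found in none of the 11 entries, against 0.475% of all promoters. Pim1 and Lifr have 2 entries each, of which the upstream one is printed. A match describes these letters only, and a missing match says nothing of sites elsewhere.

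The ligand gene Lif (chromosome 11, 4257557 to 4272514, plus strand, mm10) was expressed at a low level in every group. In PRB uteri it reached 1.13, 1.38, 0.537 and 1.22 FPKM in P4 replicates 1 to 4, against 0.710, 0.604, 0.950 and 0.962 FPKM in oil replicates 1 to 4. The groups overlap because PRB P4 replicate 3 holds the lowest Lif value of all 16 libraries. That library also stood apart in summed FPKM of leukocyte markers, at 42.5 against 24.8 to 29.3 in the others of its group, and had the highest sum of epithelial markers, 1488, the lowest of smooth muscle markers, 761, and the low Pgr value given above. Their part in the Lif value was not tested. In PRA uteri it reached 1.47, 1.69, 1.40 and 1.70 FPKM with P4, against 0.757, 0.710, 0.763 and 0.923 FPKM with oil, so that every P4 library lay above every oil library. Lif rose with P4 in PRA by 0.52 on the log2(FPKM + 1) scale (SE 0.13, limma, adjusted p = 0.00188), and the ratio of group means was 1.99. The difference in PRB was 0.18 (SE 0.13, 95% interval -0.09 to 0.45, adjusted p = 0.22) and did not pass the threshold of 0.05. Without PRB P4 replicate 3 it was 0.31 and passed (adjusted p = 0.00938). The added 1 FPKM understates fold changes at this level, and with 0.1 FPKM in its place the PRA difference was larger, as given in the closing section. Mean Lif over all libraries was 1.06 FPKM, with both oil groups averaging under 1, so the gene passed the filter through its P4 values. These were chiefly those of PRA, at a mean of 1.57 FPKM against 1.07 in PRB. With every group at its oil level Lif would not have been tested, so its tests are not independent of the filter. Lif rested on about 136 fragments in PRB P4 replicate 3 and on about 435 in PRA P4 replicate 4.

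**Figure D1:**
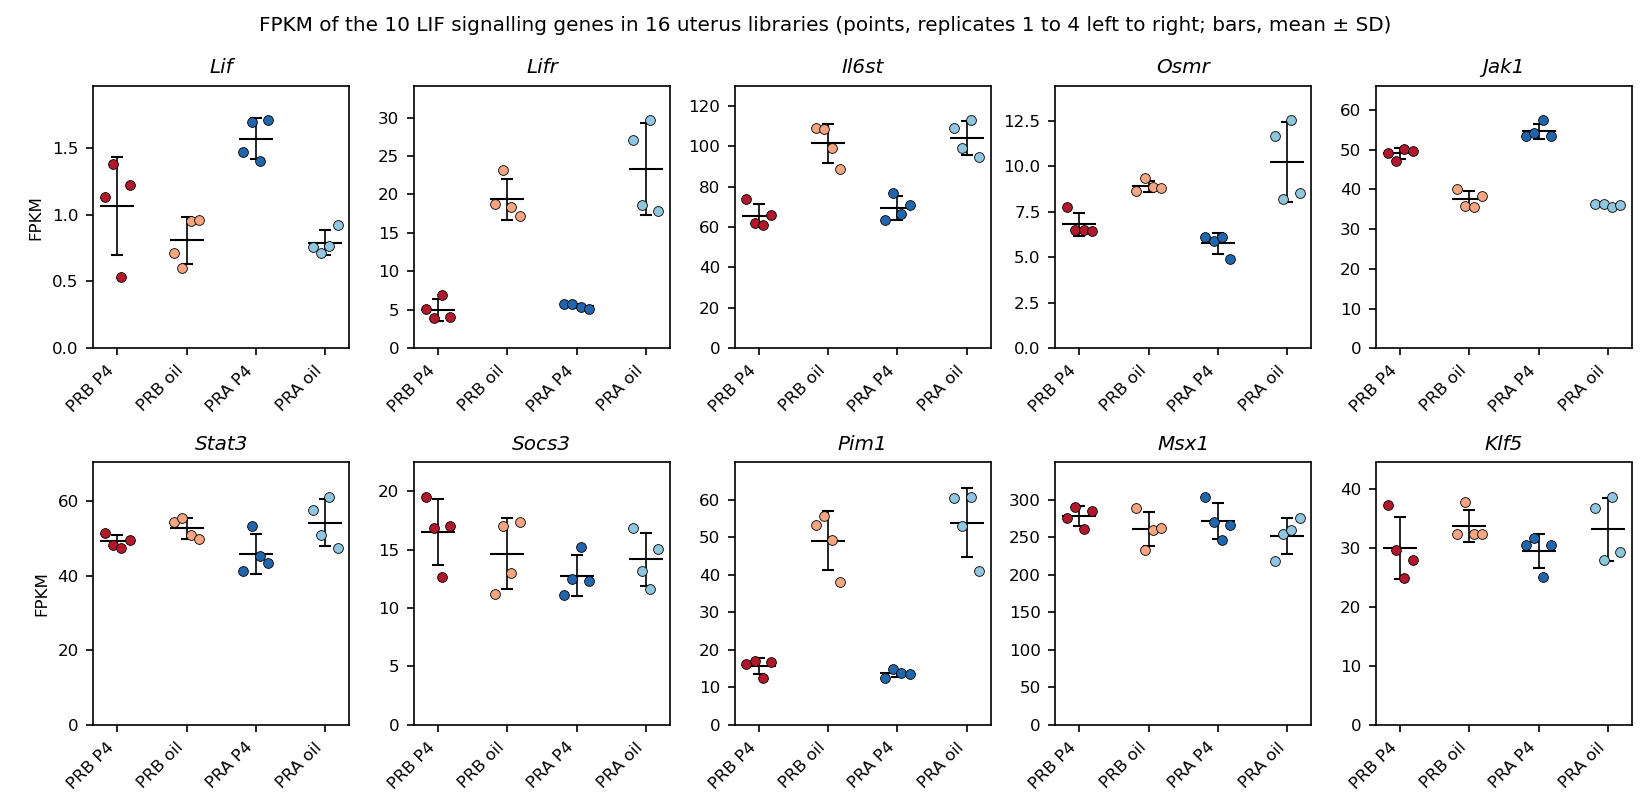
FPKM (y axes, from 0) of the 10 genes in each library of PRB P4, PRB oil, PRA P4 and PRA oil (x axes); points are replicates 1 to 4 from left to right and bars are mean ± SD. Lifr and Pim1 are far lower in all P4 libraries than in any oil library of either strain, and Jak1 is higher.

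With P4, Lif averaged 1.07 ± 0.367 FPKM in PRB and 1.57 ± 0.154 in PRA (SD, n = 4), and the highest PRB P4 value, 1.38, lay just under the lowest PRA P4 value, 1.40. The difference was -0.33 (SE 0.13, limma, unadjusted p = 0.0198, adjusted p = 0.0895) and did not pass over all features. Without PRB P4 replicate 3 it was -0.19 (adjusted p = 0.179). The P4 responses differed by -0.34 (PRB minus PRA, SE 0.18, 95% interval -0.72 to 0.04, adjusted p = 0.367).

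The 3 receptor chains all fell with P4 in both strains, to different extents. Lifr (chromosome 15, 7090614 to 7197489, plus strand), the chain that binds LIF itself, stood in PRB at 5.13, 3.95, 6.999 and 4.04 FPKM in P4 replicates 1 to 4, against 18.7, 23.2, 18.3 and 17.2 FPKM in oil. In PRA it stood at 5.83, 5.72, 5.35 and 5.18 FPKM with P4, against 27.0, 18.6, 29.6 and 17.8 FPKM with oil. No P4 value reached the lowest oil value in either strain. Lifr fell by 1.77 in PRB (SE 0.17, limma, adjusted p = 3.33e-07) and by 1.86 in PRA (SE 0.17, adjusted p = 2e-07), and the group means were 3.85-fold and 4.21-fold lower.

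Il6st (chromosome 13, 112464070 to 112510086, plus strand), which encodes the gp130 chain that all cytokines of the family share, was the most abundant of the receptor genes. It measured 73.7, 62.0, 60.9 and 65.9 FPKM in PRB P4, against 109, 109, 99.1 and 88.7 FPKM in PRB oil. In PRA it measured 63.7, 77.0, 66.2 and 70.8 FPKM with P4, against 109, 98.8, 113 and 94.8 FPKM with oil. The P4 and oil values did not overlap in either strain. Il6st fell by 0.62 in PRB (SE 0.08, limma, adjusted p = 1.19e-05) and by 0.57 in PRA (SE 0.08, adjusted p = 2.48e-05).

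Osmr (chromosome 15, 6813577 to 6874969, minus strand) encodes the oncostatin M receptor chain, which also pairs with gp130. It measured 7.79, 6.49, 6.52 and 6.42 FPKM in PRB P4, against 8.66, 9.34, 8.87 and 8.79 FPKM in PRB oil. In PRA it measured 6.12, 5.91, 6.14 and 4.89 FPKM with P4, against 11.6, 8.18, 12.5 and 8.53 FPKM with oil. Again every P4 library lay below every oil library of its strain. Osmr fell by 0.35 in PRB (SE 0.11, limma, adjusted p = 0.0138) and by 0.71 in PRA (SE 0.11, adjusted p = 5.49e-05). The PRB call was lost after quantile normalization (-0.22, adjusted p = 0.12). The difference of the responses was 0.37 (SE 0.16, unadjusted p = 0.0392, adjusted p = 0.274).

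The chains fell unequally, which ratios within a library restate. The ratio of Il6st to Lifr FPKM was 13.8 ± 3.48 in PRB P4 and 5.27 ± 0.473 in PRB oil, and 12.6 ± 1.26 in PRA P4 and 4.62 ± 0.816 in PRA oil (SD, n = 4). The ratio of Lifr to Osmr FPKM was 0.742 in PRB P4 and 2.17 in PRB oil, and 0.964 in PRA P4 and 2.26 in PRA oil. Lifr was thus the more abundant of both chains in all 8 oil libraries, whereas with P4 their levels were close or Osmr was higher. The ratio of Il6st to Osmr FPKM overlapped between P4 and oil libraries in both strains, at 9.65 ± 0.416 in PRB P4 and 11.4 ± 1.04 in PRB oil, and at 12.2 ± 1.92 in PRA P4 and 10.4 ± 1.46 in PRA oil (SD, n = 4). An exact permutation test compared 4 P4 with 4 oil libraries in each strain for Il6st to Lifr, Lifr to Osmr and Pim1 to Stat3. Each of these 6 exact permutation tests gave p = 0.0286, and 0.0286 after Benjamini-Hochberg adjustment over the 6. The ratio of Il6st to Osmr was not tested. The ratios were formed from genes whose changes were already known, so these tests add no separate evidence. These ratios do not depend on scaling between libraries.

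**Figure D2:**
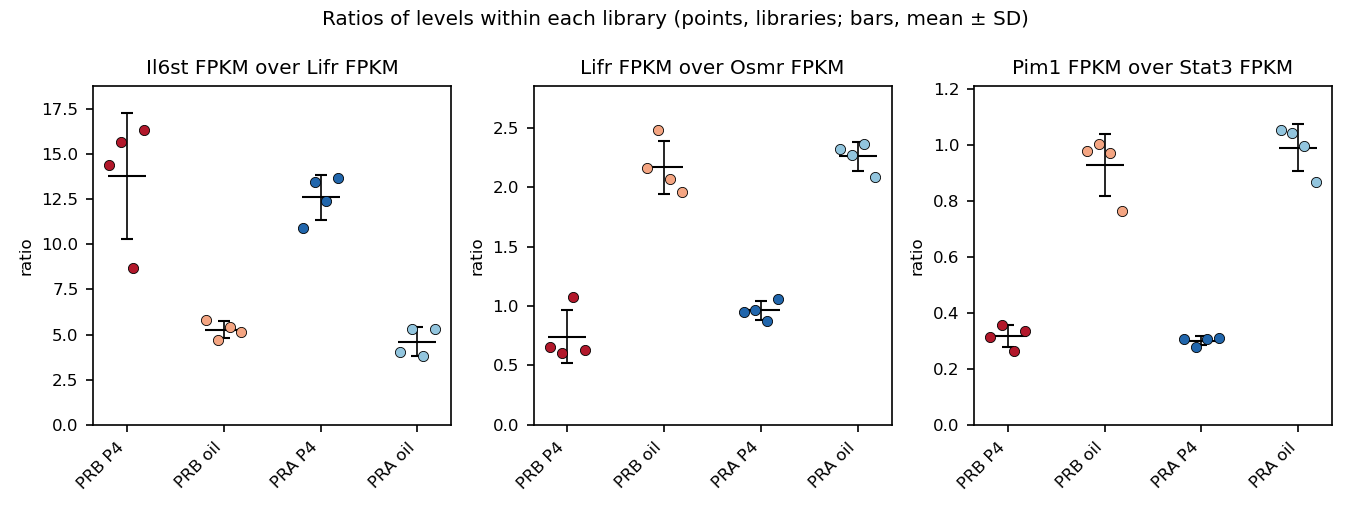
Ratio of FPKM (y axes, from 0) of Il6st to Lifr, of Lifr to Osmr and of Pim1 to Stat3 within each library, by group (x axes); bars are mean ± SD of 4 libraries. In both strains the P4 libraries lie above the oil libraries for Il6st to Lifr and below them for the other ratios.

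Summed FPKM of markers of several cell types also differed between P4 and oil, though the markers of a list did not all move alike. Summed FPKM of the 5 stromal markers was 623 to 666 in PRB P4 and 957 to 1057 in PRB oil, and 502 to 643 in PRA P4 and 843 to 984 in PRA oil, with 1 of 5 markers higher and 3 lower with P4 in each strain. The sum of 7 epithelial markers was 1230 to 1488 in PRB P4 and 787 to 846 in PRB oil, and 956 to 1207 in PRA P4 and 742 to 845 in PRA oil, with 3 higher and 0 lower in PRB and 3 higher and 2 lower in PRA. The sum of 5 endothelial markers was 176 to 186 in PRB P4 and 209 to 237 in PRB oil, and 120 to 151 in PRA P4 and 197 to 251 in PRA oil, with 0 of 5 higher and 1 lower in PRB and 0 higher and 3 lower in PRA. Cldn5, a tight junction gene of endothelium named after its values were seen, was at 62.7 ± 11.2 FPKM in PRB P4 and 108 ± 16.6 in PRB oil (SD, n = 4) and was the endothelial marker called there. Sums weigh abundant genes most. Cldn3, an epithelial marker, was at 589 ± 38.1 FPKM in PRB P4 and 179 ± 25.0 in PRB oil. In PRA Cldn3 was at 379 ± 26.0 with P4 and 158 ± 19.6 with oil. The stromal marker Dcn was at 336 ± 10.8 FPKM in PRB P4 and 608 ± 34.0 in PRB oil. In PRA Dcn was at 290 ± 35.6 with P4 and 573 ± 53.6 with oil, while Hand2 was the stromal marker that rose. A sum need not stand for its whole cell type. The part of these marker shifts in the receptor results was not tested. In whole tissue, fewer cells of a type and less RNA per cell cannot be told apart.

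Jak1 (chromosome 4, 101152367 to 101265282, minus strand), the kinase bound to gp130, rose while the receptor chains fell. It measured 49.3, 47.1, 50.3 and 49.6 FPKM in PRB P4, against 40.0, 35.8, 35.7 and 38.5 FPKM in PRB oil. In PRA it measured 53.5, 54.1, 57.4 and 53.6 FPKM with P4, against 36.3, 36.3, 35.5 and 36.1 FPKM with oil. P4 and oil values were apart in both strains. Jak1 rose by 0.38 in PRB (SE 0.04, limma, adjusted p = 1.12e-06) and by 0.59 in PRA (SE 0.04, adjusted p = 1.42e-08). With P4, every PRB value lay below every PRA value and Jak1 was lower in PRB by -0.15 (SE 0.04, adjusted p = 0.0232). This call was lost without PRA P4 replicate 3 (-0.13, adjusted p = 0.0677) and without PRB P4 replicate 2 (-0.13, adjusted p = 0.0697). The P4 responses differed by -0.21 (PRB minus PRA, SE 0.06, unadjusted p = 0.00325, adjusted p = 0.0821), which did not pass. Exons of Jak1 overlap those of Raver2 on the other strand and strandedness of the counting is not given in the sources used here, so reads of the overlap cannot be told apart. Raver2 was at 7.13 ± 1.51 FPKM in PRB P4 and 13.1 ± 0.261 in PRB oil, and at 6.27 ± 0.598 in PRA P4 and 14.5 ± 0.696 in PRA oil (SD, n = 4).

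Stat3 (chromosome 11, 100885098 to 100939540, minus strand), the transcription factor that gp130 activates, ranged from 47.5 to 51.5 FPKM in PRB P4 and from 49.7 to 55.5 in PRB oil, and from 41.2 to 53.3 in PRA P4 and from 47.3 to 61.1 in PRA oil. The ranges overlap in both strains. Stat3 fell by 0.24 in PRA (SE 0.08, limma, adjusted p = 0.0192), while the difference in PRB was -0.10 (SE 0.08, adjusted p = 0.319) and did not pass; the responses differed by 0.14 (adjusted p = 0.596). The PRB difference was -0.29 after rescaling to a common total and -0.35 after quantile normalization, and passed in both (adjusted p = 0.00477 and 0.00115). The PRA call was lost without PRA oil replicate 1 (-0.21, adjusted p = 0.0569), PRA oil replicate 3 (-0.18, 0.0711), PRA P4 replicate 1 (-0.19, 0.0657) or PRA P4 replicate 4 (-0.21, 0.053). Stat3 also shares exon bases with Stat5a on the other strand, which rose with P4 by 0.58 in PRB and 0.38 in PRA; the PRA call was lost after rescaling to a common total and with replicates 1 and 3 as the only PRA oil libraries. Reads of the overlap cannot be told apart.

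The STAT3 target genes Pim1 and Socs3 did not move together. Pim1 (chromosome 17, 29490753 to 29496112, plus strand), a serine/threonine kinase gene, measured 16.2, 17.1, 12.5 and 16.7 FPKM in PRB P4, against 53.3, 55.7, 49.4 and 38.0 FPKM in PRB oil. In PRA it measured 12.6, 14.8, 13.9 and 13.5 FPKM with P4, against 60.6, 53.2, 60.9 and 41.1 FPKM with oil. The highest P4 value of all 8 libraries, 17.1, was under the lowest oil value, 38.0. Pim1 fell by 1.59 in PRB (SE 0.14, limma, adjusted p = 1.09e-07) and by 1.89 in PRA (SE 0.14, adjusted p = 1.93e-08), and the group means were 3.14-fold and 3.93-fold lower. Relative to Stat3 FPKM, Pim1 FPKM was 0.318 in PRB P4 and 0.929 in PRB oil, and 0.301 in PRA P4 and 0.991 in PRA oil.

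Socs3 (chromosome 11, 117966079 to 117970047, minus strand) encodes the feedback inhibitor. Its printed window, which lies inside these bounds, holds the STAT motif shown above. Socs3 ranged from 12.7 to 19.5 FPKM in PRB P4 and from 11.2 to 17.4 in PRB oil. In PRA it ranged from 11.1 to 15.2 with P4 and from 11.6 to 16.8 with oil. The groups overlap throughout, with differences of 0.17 in PRB (95% interval -0.16 to 0.50, limma, adjusted p = 0.344) and -0.13 in PRA (95% interval -0.47 to 0.20, adjusted p = 0.454). With P4, Socs3 was at 16.5 ± 2.83 FPKM in PRB and 12.8 ± 1.73 in PRA (SD, n = 4), a difference of 0.34 with unadjusted p = 0.0444 and adjusted p = 0.151. A fall in Socs3 of the size seen for Pim1 lies outside both intervals.

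**Figure D3:**
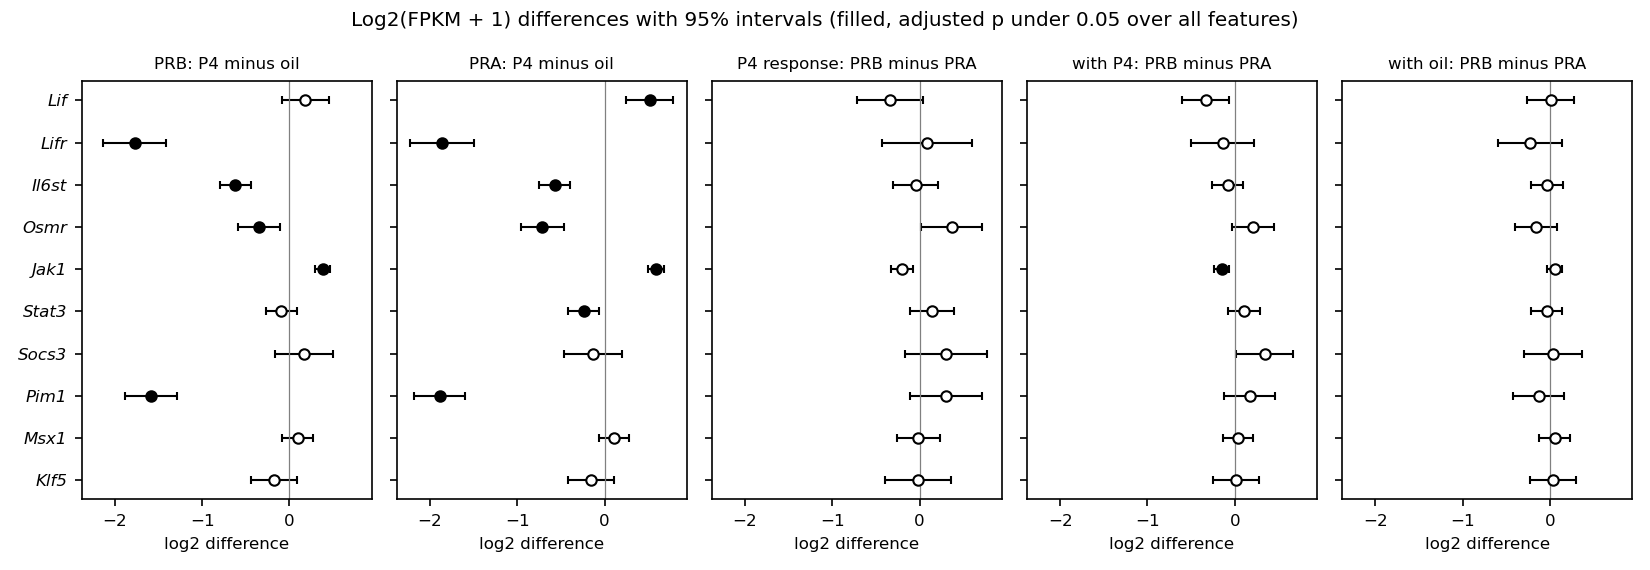
Log2(FPKM + 1) differences (x axes) of the 10 genes (rows) in 5 comparisons (panels), with 95% intervals; filled points had an adjusted p under 0.05 over all 15408 features tested. In the panels of P4 minus oil, Lifr and Pim1 lie far to the left in both strains, and no gene is filled in the panels of the difference of responses and of the strains with oil.

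The receptivity factors Msx1 and Klf5 were not called in any comparison with FPKM as deposited. Msx1 (chromosome 5, 37820485 to 37824583, minus strand), a homeobox gene of the preimplantation uterus, was the most abundant of the 10 genes, at 278 ± 13.1 FPKM in PRB P4, 261 ± 22.9 in PRB oil, 271 ± 24.001 in PRA P4 and 252 ± 24.3 in PRA oil (SD, n = 4). Its P4 differences were 0.09 in PRB (95% interval -0.08 to 0.27) and 0.11 in PRA (-0.07 to 0.29), limma adjusted p = 0.329 and 0.249. Klf5 (chromosome 14, 99298691 to 99315036, plus strand), a zinc finger gene needed for implantation in mice, was at 30.0 ± 5.25 FPKM in PRB P4, 33.7 ± 2.67 in PRB oil, 29.5 ± 2.94 in PRA P4 and 33.2 ± 5.36 in PRA oil (SD, n = 4). Its differences were -0.18 in PRB (95% interval -0.44 to 0.09) and -0.16 in PRA (-0.42 to 0.11), limma adjusted p = 0.218 and 0.274. Without PRB P4 replicate 1, which held the highest Klf5 value of its group, the PRB difference was -0.28 and passed (adjusted p = 0.0421). Klf5 was also called lower with P4 after rescaling to a common total (-0.37 in PRB and -0.33 in PRA, adjusted p = 0.0145 and 0.025) and after quantile normalization (-0.36 and -0.30, adjusted p = 0.0195 and 0.0419).

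Counted together, 1 gene rose and 4 fell with P4 in PRB (5 of 10), while 69.1% of all 15408 features tested were called there, 36.2% higher and 32.9% lower. In PRA 2 rose and 5 fell (7 of 10), against 69.8% of all features, 36.6% higher and 33.2% lower. The shares are near or below those of the whole table, so the count by itself is not a result about these genes. The median log2 difference of the 10 genes was -0.14 in PRB and -0.20 in PRA, against 0 and 0.01 over all features. When each library was rescaled to the same total, the differences of all features shifted by a median of -0.19 in PRB and -0.17 in PRA; 37.1% of calls were then higher in PRB and 39% in PRA, against 52.4% and 52.5% with FPKM as deposited. Jak1 stayed higher and Lifr, Il6st, Osmr and Pim1 stayed lower in both strains under that scaling.

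Between the strains with P4, 1 of 10 genes was called, against 16% of all features, 7.75% of all being higher and 8.29% lower in PRB. The difference of the responses was called for 0 of 10, against 2.28% of all features (1.47% higher and 0.811% lower), with 2 of 10 (Jak1 and Osmr) at an unadjusted limma p under 0.05. Without hormone 0 of 10 differed, against 0.117% of all features (0.0389% higher and 0.0779% lower), and 0 of 10 had an unadjusted limma p under 0.05. With oil the largest difference between strains was that of Lifr, at 19.3 ± 2.62 FPKM in PRB and 23.3 ± 5.96 in PRA (SD, n = 4; -0.23, 95% interval -0.59 to 0.14).

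Lifr and its partners also varied together among PRA oil libraries. Replicates 1 and 3 held the higher values and replicates 2 and 4 the lower ones for Lifr, Il6st, Osmr, Stat3, Pim1 and Klf5, but not for Lif, Jak1, Socs3 or Msx1. For Lifr the 4 libraries lay 0.24, -0.28, 0.37 and -0.33 from the group mean on the log2(FPKM + 1) scale. Summed FPKM of 3 adipose markers in replicates 1 to 4 was 289, 82.9, 244 and 30.3, and that of the 3 skeletal muscle markers was 8.50, 61.1, 8.08 and 61.5. The skeletal muscle sum was nearly all Acta1, at a mean of 34.2 FPKM in PRA oil, against 0.543 for Ckm and 0 for Myh4. The sum of smooth muscle markers was likewise lower in replicates 1 and 3, at 811, 1078, 807 and 948. The part of these markers was not tested. Sums of other lists were also higher in replicates 1 and 3, at 241, 213, 251 and 197 for endothelium, 954, 947, 984 and 843 for stroma, and 32.7, 20.5, 29.7 and 26.6 for leukocytes. With replicates 2 and 4 as the only PRA oil libraries, 6 of 10 genes were still called in PRA, and with replicates 1 and 3 alone 8 of 10. In the first case the call of Stat3 was lost (-0.10, adjusted p = 0.312) and in the other Klf5 gained one (-0.35, adjusted p = 0.0321), as did Osmr for the difference of responses (0.61, adjusted p = 0.0167).

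**Figure D4:**
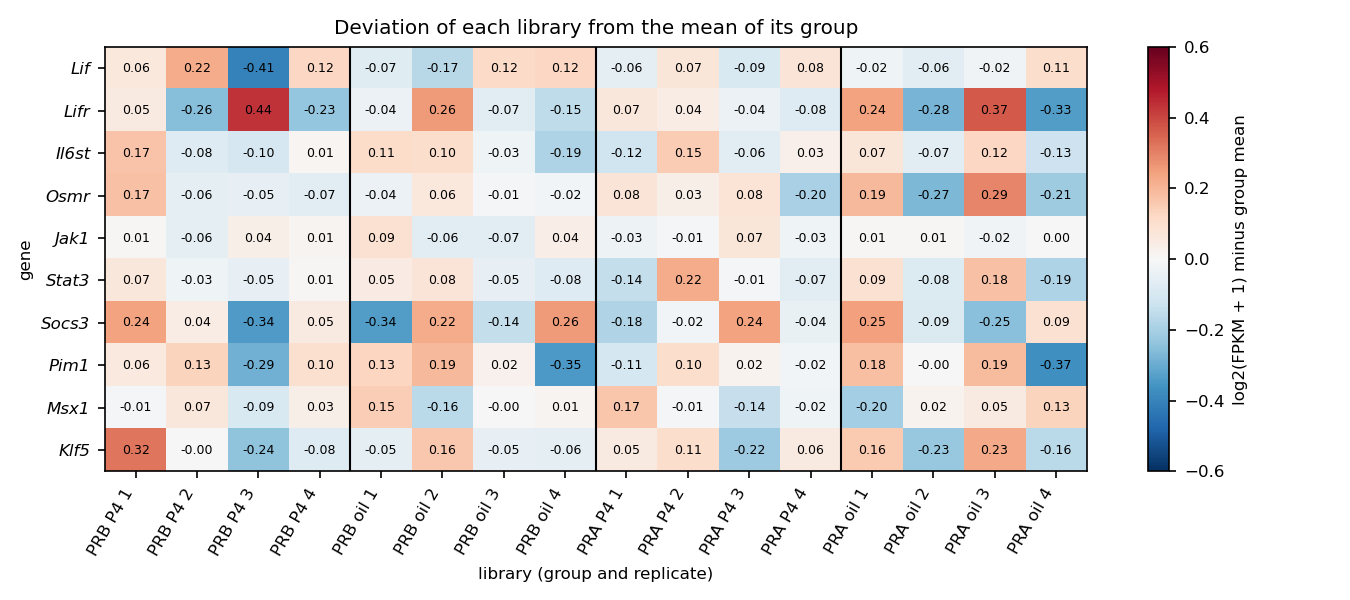
Difference of each library from the mean of its group on the log2(FPKM + 1) scale (colour and printed value), for the 10 genes (rows) and 16 libraries (columns). In PRB P4 replicate 3, Lif, Socs3, Pim1 and Klf5 are below and Lifr above the group mean, and in PRA oil replicates 1 and 3 differ from replicates 2 and 4 in Lifr and Osmr.

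Among the other ligands of the family, 5 genes were tested, and 3 rose and 1 fell in each strain (80% called, against 69.1% of all features in PRB and 69.8% in PRA). Rescaled to a common total, 3 rose and 1 fell in PRB, and 1 rose and 1 fell in PRA. Il6, the interleukin-6 gene, was at 5.87 ± 2.75 FPKM in PRB P4 and 0.0547 ± 0.0546 in PRB oil, and at 2.54 ± 0.905 in PRA P4 and 0.0517 ± 0.0306 in PRA oil (SD, n = 4). It rose by 2.61 in PRB and 1.72 in PRA (limma, adjusted p = 2.99e-07 and 2.09e-05), but it passed the filter on low values only through the P4 groups, so that it had to differ to be tested. Clcf1, which encodes a ligand of the ciliary neurotrophic factor receptor, fell to 31.1 ± 3.49 FPKM in PRB P4, against 70.9 ± 11.8 in PRB oil, and to 31.2 ± 2.71 in PRA P4, against 80.3 ± 16.9 in PRA oil. Il6 and Lif were low in FPKM next to Clcf1. Of the 4 other receptor genes 2 rose and 1 fell in each strain (75% called, against 69.1% of all features in PRB and 69.8% in PRA). The gene that fell was Cntfr, the ciliary neurotrophic factor receptor, by 1.58 in PRB and 0.68 in PRA (limma, adjusted p = 4.4e-05 and 0.0225). The PRA call of Cntfr was lost under 6 of 25 alternatives. The genes that rose were Il6ra and Il11ra1. In PRA both lost their calls after rescaling to a common total, and Il11ra1 lost its call under 5 of 25 alternatives. Their PRB calls were kept throughout.

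Of 13 SOCS, PIAS and phosphatase genes, most but not all of which restrain the pathway, 8 rose and 1 fell in PRB (69.2% called, against 69.1% of all features). In PRA 8 rose and 2 fell (76.9%, against 69.8%). Rescaled to a common total, 6 rose and 2 fell in PRB, and 7 rose and 2 fell in PRA. Socs7 was at 72.5 ± 12.9 FPKM in PRB P4 and 18.1 ± 1.75 in PRB oil, and at 44.5 ± 4.15 in PRA P4 and 17.96 ± 0.46 in PRA oil (SD, n = 4). It rose by 1.93 in PRB and 1.26 in PRA, and the responses differed by 0.68 (limma, adjusted p = 0.0298), a call lost under 11 of 24 alternatives. Ptpn2, a phosphatase gene that acts on JAK and STAT proteins, rose by 1.03 in PRB and 1.16 in PRA. Socs1 rose by 0.48 in PRB and 0.84 in PRA; its PRB call was lost after rescaling to a common total. Of 8 other Janus kinase and STAT genes tested 1 rose and 2 fell in PRB (37.5% called, against 69.1% of all features). In PRA 1 rose and 3 fell (50%, against 69.8%). Rescaled to a common total, Jak2 and Stat5b gained calls as lower in PRB. In PRA Jak2 and Jak3 then gained calls as lower and Stat5a lost its call as higher. These shares thus depend on the scaling. Tyk2 was lower by -0.53 in PRB and -0.62 in PRA. In the adaptor list 1 of 4 rose and 1 fell in PRB (50% called, against 69.1% of all features). In PRA 1 rose and 2 fell (75%, against 69.8%). After rescaling to a common total, Sos1 gained a call in both strains and Shc1 in PRB. Gab1, the docking protein that couples gp130 to the MAP kinase branch, fell by 1.52 in PRB and 1.65 in PRA (limma, adjusted p = 2.24e-09 and 1.23e-09).

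Other genes known as STAT3 targets went both ways. Of 12 genes 8 rose and 2 fell in PRB (83.3% called, against 69.1% of all features), and 5 rose and 1 fell in PRA (50% called, against 69.8%), which became 6 and 3 in PRB and 1 and 3 in PRA after rescaling to a common total. Myc rose by 0.90 in PRB and 1.02 in PRA, and Pim3, a relative of Pim1, by 0.93 in PRB and 0.42 in PRA; the PRA call of Pim3 was lost under 3 of 25 alternatives. Irf1, an interferon regulatory factor gene, fell like Pim1 in both strains, by 0.73 in PRB and 0.86 in PRA, and Bcl6, a repressor gene named here after its values were seen, fell by 0.60 in PRB (limma, adjusted p = 0.000571). Cebpd rose in PRB to 47.6 ± 2.04 FPKM with P4, against 22.7 ± 8.35 with oil, whereas PRA had 20.2 ± 2.29 with P4 and 20.4 ± 6.40 with oil (SD, n = 4). With P4 it was higher in PRB by 1.20 (limma, adjusted p = 0.00406), but the responses differed by 1.08 with an adjusted p of 0.11. Many of these genes answer to other factors as well.

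**Figure D5:**
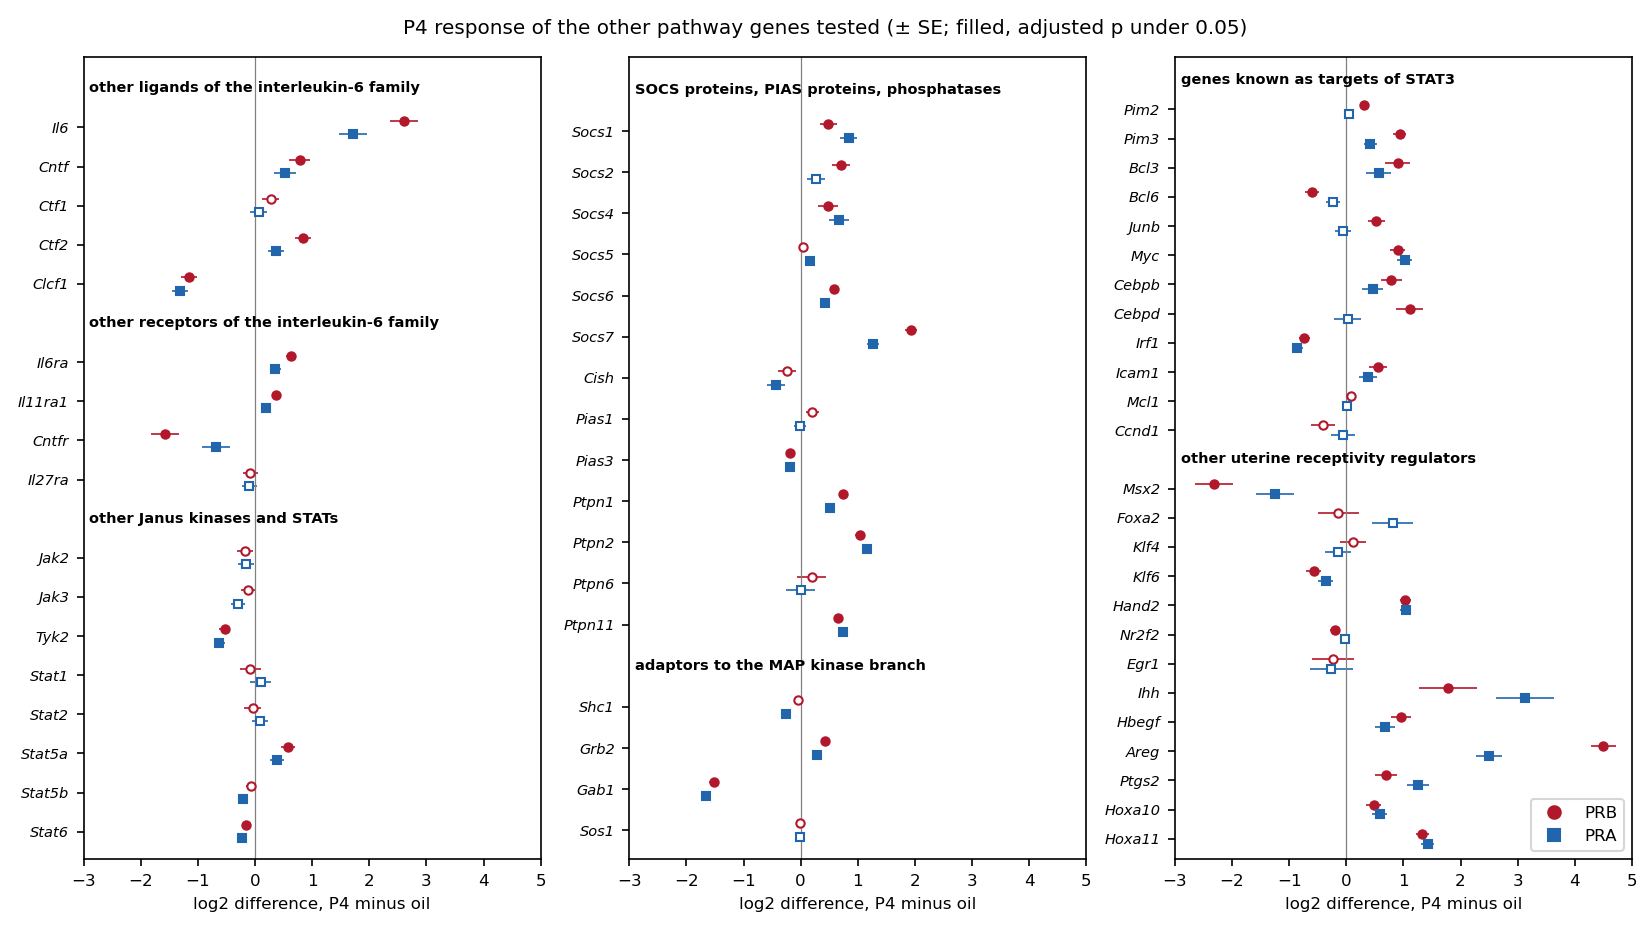
Log2 difference of P4 minus oil (x axes) for the 59 other pathway genes tested, in PRB (circles, drawn above) and PRA (squares), with SE; filled symbols had an adjusted p under 0.05. Areg and Il6 lie farthest to the right in PRB, while Msx2, Cntfr, Gab1 and Clcf1 lie to the left in both strains.

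Among 13 other regulators of uterine receptivity 7 rose and 3 fell in PRB (76.9% called, against 69.1% of all features). In PRA 7 rose and 2 fell (69.2%, against 69.8%). Areg, an epidermal growth factor receptor ligand, rose by 4.50 in PRB and 2.50 in PRA; at 0.0452 FPKM in PRB oil and 0.0562 in PRA oil, it too passed the filter only through its P4 values. The responses of Areg differed by 2.00 (PRB minus PRA, limma, adjusted p = 0.00531), under the same limit of the filter. Ihh, the Indian hedgehog gene, rose by 1.78 in PRB and 3.12 in PRA. Its responses differed by -1.35, which did not pass (limma, adjusted p = 0.379). In PRA oil Ihh ranged from 3.26 to 21.1 FPKM, and that difference passed only with replicates 1 and 3 as the PRA oil libraries. Hoxa11, a homeobox gene of the stroma, rose by 1.33 in PRB and 1.42 in PRA. Msx2, the close relative of Msx1, fell to 4.62 ± 2.51 FPKM in PRB P4, against 25.0 ± 6.14 in PRB oil, and to 10.9 ± 2.30 in PRA P4, against 28.0 ± 10.01 in PRA oil (SD, n = 4). Its fall was -2.32 in PRB and -1.25 in PRA (limma, adjusted p = 1.76e-05 and 0.00343), where Msx1 did not pass; the PRA call of Msx2 was lost with replicates 1 and 3 as the only PRA oil libraries. Over all 59 genes tested beside the 10, 30 rose and 11 fell in PRB (69.5%) and 27 rose and 12 fell in PRA (66.1%), close to the shares of all features. Rescaled to a common total, 26 rose and 17 fell in PRB, and 17 rose and 18 fell in PRA, so the balance of directions in PRA depends on the scaling. With P4, 12 of the 59 differed between the strains, 10 higher and 2 lower in PRB (20.3% called, against 16% of all features).

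The features whose pattern over the 16 libraries was most like that of Lifr were Wls, which encodes the carrier of WNT proteins (r = 0.993), Itpr1, an intracellular calcium channel gene (0.992), and Rab27b, a small GTPase gene (0.992), by Pearson r of log2(FPKM + 1) among 13169 features. For Lif they were Mvb12b (0.941), Orc6, a subunit of the origin recognition complex (0.939), and Crybb1, a crystallin gene (0.936). The libraries fall into P4 and oil clusters, which such values chiefly reflect. Around the group means the r was 0.865, 0.863 and 0.884 for the Lifr features and 0.808, 0.822 and 0.841 for those of Lif. These are descriptions of 16 libraries that share their groups, and they show nothing of shared control.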

How the data were processed

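RNA-seq was made from whole uterus in 16 libraries, 4 per group. The authors deposited FPKM values, 1 column per library, and the submitters' processing notes list Cuffdiff, Cufflinks 2.0.2 and TopHat2 2.0.4, with mm10 as the build. Of annotation, strandedness and scaling nothing is stated (not given in the sources used here). No fragment counts come with the table, so depth was estimated from the steps between low values in 2170 features with a single GENCODE transcript longer than 1500 bp, with 200 bp taken off each length; it is an estimate after any scaling by the authors. The labels call the replicates biological without naming animals; p-values measure the spread between these samples.

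The 15408 of 31274 features that averaged 1 FPKM or more were compared as log2(FPKM + 1) with limma 3.58.1 in R 4.3.3: 1 fit of all 16 libraries, group means, intensity trend, two-sided moderated tests, and Benjamini-Hochberg adjustment over all features tested for each of 5 contrasts. Called, rose and fell mean an adjusted p under 0.05. The fit was tried on simulated data with independent noise and few changed features. That setting differs from these data, where most features were called with P4, so it says nothing of error rates here. Gene positions are those of GENCODE M21 (mm10). The 10 genes and the lists of 64 other pathway genes and of tissue markers were chosen with earlier results of these data known. Named are the 10 genes, Pgr, up to 4 called members of each list with the largest change in a contrast, features most like Lif and Lifr, and Raver2 and Stat5a for their overlap, chosen after the values were seen. Some list members are also named because rescaling to a common total changed their calls, and some markers for their share of a sum. Alternatives were another pseudocount, no filter, 3 other scalings, fits on the libraries of a contrast, a replicate block and leaving out each library; the fits on PRA oil pairs were added after the values were seen.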

Additional observations from a re-analysis of the deposited data

Results flagged for a closer look

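In 40 checks of a gene within a group, 3 single libraries stood farther from the other 3 than the 95% critical value for 4 samples allows; chance flags about 1 in 20 such groups. Osmr was at 7.79 FPKM in PRB P4 replicate 1, with the others at 6.42 to 6.52. Jak1 was at 57.4 FPKM in PRA P4 replicate 3, with the others at 53.5 to 54.1. Klf5 was at 37.7 FPKM in PRB oil replicate 2, with the others at 32.3 to 32.5. Without PRA P4 replicate 3, Jak1 lost its call between strains with P4 (-0.13, adjusted p = 0.0677).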

How the results depend on the processing

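Of the 1240 differences of single genes recomputed under the alternatives, 1220 kept their side of the threshold, 11 gained a call, 9 lost it, and no called difference turned its direction. With 0.1 FPKM as pseudocount the P4 difference of Lif in PRA was 0.91, against 0.52 with 1. Quantile normalization and rescaling to a common total each gave calls to Stat3 and Klf5 in PRB and to Klf5 in PRA, all lower with P4, and quantile normalization to Lif in PRB (0.42, adjusted p = 0.00387). The cause was not tested.

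Leaving out 1 library at a time left 5 to 6 of the 10 genes called for P4 in PRB, 6 to 7 in PRA, 0 to 1 between strains with P4, 0 between strains with oil, and 0 for the difference of responses. Over all features it left 10183 to 10676 called in PRB, 10206 to 11121 in PRA, 8 to 30 for the strains with oil, 1416 to 2632 for the strains with P4 and 155 to 508 for the difference of responses, against 10647, 10760, 18, 2471 and 352 in the full set. For the strains with oil, 33 features were called without a filter and 6 when fitted on its own libraries only, and for the strains with P4 a fit on its own libraries called 1640. With replicates 2 and 4 as the only PRA oil libraries 4 features were called between strains with oil, and 85 for the difference of responses; with replicates 1 and 3 alone they were 30 and 937, and 1 of the 10 genes was called for the difference of responses.

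Same-numbered libraries deviated from their group means with correlations of -0.229 to 0.312 over 24 pairs. The 6 pairs over 0.1 all involve PRA oil. The labels state no block or batch that crosses the groups, and these values cannot settle whether same-numbered libraries shared one. With the replicate block 10705 features were called in PRB, 10798 in PRA, 19 and 2569 between strains with oil and P4, and 467 for the difference of responses, and 5, 7, 0, 1 and 0 of the 10 genes. Lif rested on about 136 to 435 fragments per library in the P4 groups; counting error was not separated from the spread between libraries.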
